A study of Mus musculus with 8 samples.

Results

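The genes described here encode the enzymes and regulators of de novo fatty acid synthesis, the route by which a cell builds long-chain fatty acids from citrate. The 10 genes were named in advance as a pathway (Acly, Me1, Acaca, Acacb, Fasn, Elovl6, Scd1, Scd2, Srebf1 and Thrsp), and all 10 were found by symbol among the 17041 genes of the deposited table. All of them passed the filter on low values, which kept 13020 genes with a mean of at least 10. RNA of the proximal large intestine came from gnotobiotic ApoE knockout mice, a strain prone to atherosclerosis because it lacks apolipoprotein E. The mice were raised germ-free, colonized by a single gavage at 8 weeks of age and dissected at 26 weeks. The core group (3 libraries) received a bacterial community that makes no butyrate, and the core plus Roseburia intestinalis group (5 libraries) received the same community with this butyrate-producing bacterium added. The comparison of the groups asks how adding the bacterium alters gene expression in the gut wall. All mice of both groups carry the knockout, and the sources used here do not give their diet, their sex or which mice shared an isolator. No label says that each library came from a separate mouse, so p-values measure the spread between these libraries.

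In de novo synthesis, ATP citrate lyase (Acly) cleaves exported citrate to cytosolic acetyl-CoA, and acetyl-CoA carboxylase turns it into malonyl-CoA. Fatty acid synthase (Fasn) builds palmitate from malonyl-CoA with NADPH, part of which comes from malic enzyme (Me1). Palmitate is then lengthened by Elovl6 and given a double bond by the stearoyl-CoA desaturases, while Srebf1 (the transcription factor SREBP1) and Thrsp (Spot 14) raise the activity of the pathway. Liver and fat are the best known sites of this route. Intestinal epithelium, which also uses bacterial short-chain fatty acids, carries the same enzymes.

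Promoter sequence is shown for 4 genes. Fasn, Acacb and Srebf1 had their highest values in the same library, as did Scd2 and 28.1% of all genes tested. Acaca was the only member whose groups did not overlap, against 5.84% of all genes tested. The stretches are the 120 bases before the start site, read 5′ to 3′ on the gene's strand, from RefSeq's promoter table (GRCm38.p6). Capitals mark CCAAT, the core of the NF-Y motif, and CANNTG, the E-box, in either orientation. Srebf1 has 3 start sites in this table, and the stretch shown is the one of them with both motifs within these 120 bases. Coordinates belong to that build and not to mm9, the build in the submitters' processing notes.

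Fasn (chr11:120824548-120824667, minus strand): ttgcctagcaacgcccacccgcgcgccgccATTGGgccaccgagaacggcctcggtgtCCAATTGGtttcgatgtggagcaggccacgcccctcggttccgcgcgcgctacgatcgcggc

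Srebf1 (chr11:60210472-60210591, minus strand): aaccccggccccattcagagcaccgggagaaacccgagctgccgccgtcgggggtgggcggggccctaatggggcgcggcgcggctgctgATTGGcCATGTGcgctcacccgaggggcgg

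Acacb (chr5:114165398-114165517, plus strand): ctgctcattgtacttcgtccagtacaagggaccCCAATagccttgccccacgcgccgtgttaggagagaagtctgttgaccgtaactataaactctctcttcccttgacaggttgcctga

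Acaca (chr11:84195318-84195437, plus strand): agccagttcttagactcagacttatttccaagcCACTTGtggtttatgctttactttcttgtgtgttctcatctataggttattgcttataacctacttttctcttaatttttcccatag

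The Fasn stretch holds CCAAT at 3 places, 2 of which overlap each other and 1 E-box. The table matched 8 of the 10 genes with 11 start sites, and Scd1 and Scd2 had no entry. In the 250 bases before the start, CCAAT on either strand occurred at 6 of the 11 member starts, against 33.8% of all 32851 promoters. The E-box occurred at 7 of 11 against 66.2%, and GGGCGG, the GC box bound by Sp1, at 4 of 11 against 32.7%. TCACNCCAC, a form of the sterol regulatory element, occurred at 0 of 11 against 1.05%. These matches describe letters only, and whether the listed start sites are used in this tissue was not tested.

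Depth, estimated from the step between low values, ran from 4597893 to 6492389 reads in the core libraries and from 5388019 to 15352045 in those with R. intestinalis. The value of Apoe, the gene these mice lack, averaged 15.2 ± 4.92 without and 20.3 ± 4.29 with the added bacterium. Since every mouse carries the knockout, it checks no group label. The epithelial genes Lgals4, Krt8 and Krt19 were abundant, with group means between 19030 and 36890. Markers of smooth muscle, fibroblasts and fat were read in every library, so the tissue was the gut wall and not isolated epithelium. In such bulk tissue, fewer cells of a type and less RNA per cell cannot be told apart. Core plus R. intestinalis replicate 1 stood apart in base composition. The mean log2 deviation of GC-rich genes (transcript GC content of at least 55.6%) exceeded that of GC-poor genes (at most 44.2%) by 0.96 in this library, against −0.51 to 0.12 in core and −0.55 to 0.38 in the other libraries with R. intestinalis. It held the highest value of 28.1% of all genes tested. Hoxb13, a gene of the distal colon, spanned 25.3 to 439 across the core libraries and 2.16 to 663 across those with R. intestinalis. The ileal bile acid transporter Slc10a2 spanned 13.9 to 510 and 59.7 to 949, so the pieces differed within both groups.

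Per length, the desaturase Scd2 and Acly were the most abundant members in the core group. The authors' normalized value per kb of the longest coding transcript (GENCODE M21) averaged 285 ± 66.2 for Scd2 and 277 ± 36.7 for Acly (SD, n = 3), a gap below their spread. Elovl6 followed at 124 ± 24.1 and Scd1 at 83.3 ± 25.1 per kb. Me1 at 39.1 ± 7.41, Thrsp at 29.1 ± 13.7, Fasn at 26.9 ± 4.10 and Acaca at 25.2 ± 4.92 per kb came next, with each gap to the following gene below the larger SD of the pair. Srebf1 at 17.8 ± 3.90 and Acacb at 5.19 ± 1.25 per kb came last in all 3 core libraries. Scd2 or Acly ranked first in all 8 libraries.

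The community difference was not past the threshold for any of the 10 genes. By limma on log2(value + 1), with p adjusted by Benjamini-Hochberg over all 13020 genes, 0 members had an adjusted p below 0.05 (0 of all genes, 0%), and 2 had an unadjusted p below 0.05 (Acaca and Fasn, both higher), against 8.13% of all genes and 4.44% higher. That count of 2 was 1 without core replicate 1 or 3 or without core plus R. intestinalis replicate 3, 4 or 5. It was also 1, without Fasn, in fits of all 8 libraries with no mean-variance trend or a filter mean of at least 50. With replicate numbers as a block the 2 were Acaca and Thrsp, the latter lower. Without core replicate 2 they were Acaca and Scd2, and the limma unadjusted p of Fasn was 0.0606. Without both core plus R. intestinalis replicates 1 and 4 they were Acaca and Me1, the latter lower. The count was 4 without core plus R. intestinalis replicate 2 or with library weights. In those 2 fits 1908 and 3829 of 13020 genes had such a p, against 1058 in the main fit. With R. intestinalis 8 members had a positive log2 difference and 2 a negative one, against 49.6% of all genes above 0, and the median was 0.23 against 0.00 for all genes tested. The groups did not overlap for 1 member, Acaca, against 5.84% of all genes and 2.53% apart and higher. The authors' deposited table calls 82 genes at a posterior probability of at least 0.95, 0.481% of its genes (0.194% called higher), and Acaca is the 1 member among them.

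**Figure D1:**
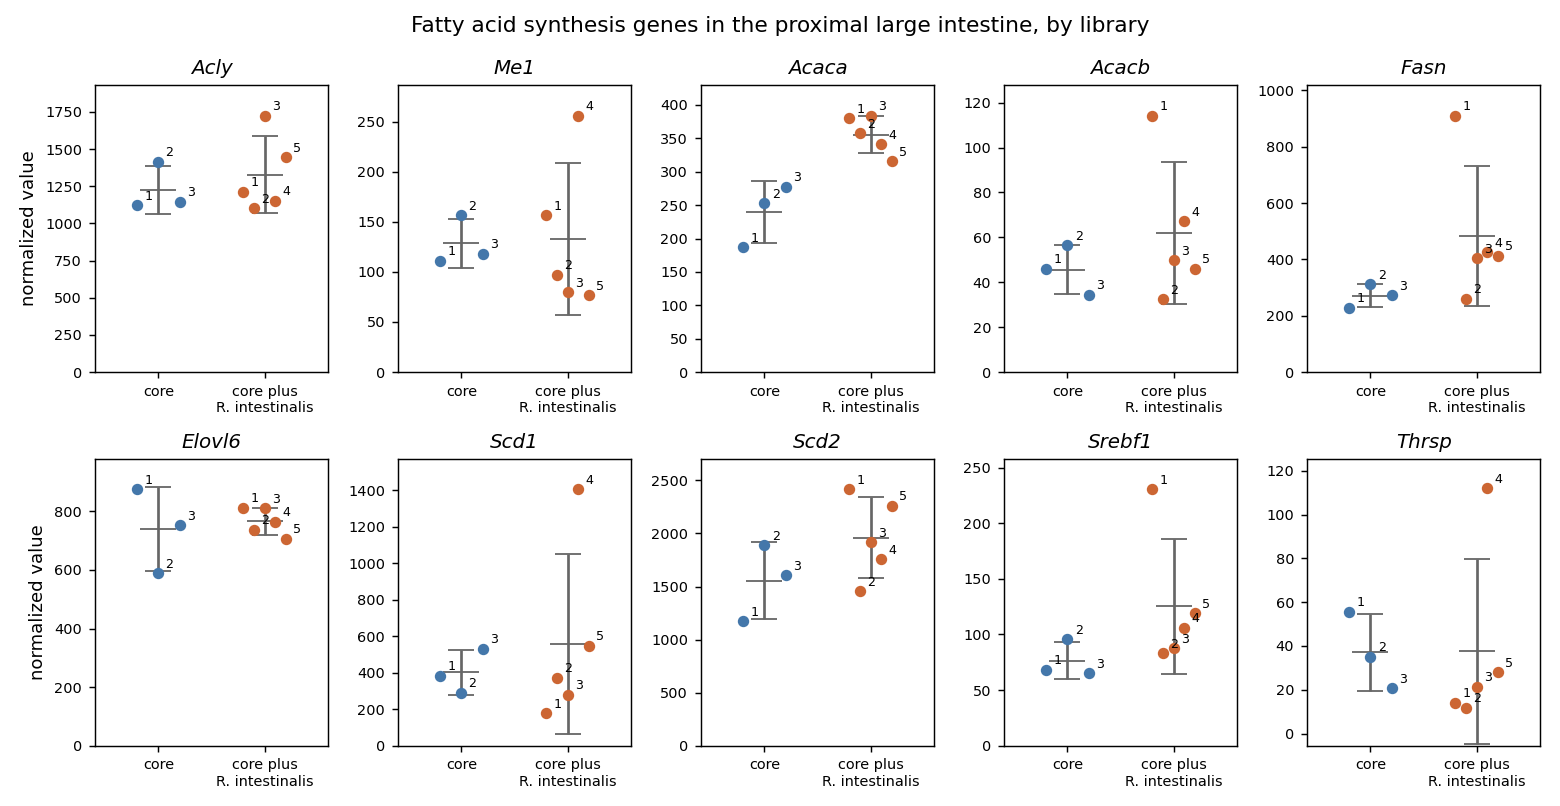
Normalized value (y axis) of each of the 10 genes in each library (points, numbered by replicate), and the group mean with its SD (bars). Groups are core (n = 3, blue) and core plus R. intestinalis (n = 5, orange). Acaca is the only gene whose groups do not overlap. Fasn, Srebf1, Acacb and Scd2 are highest in replicate 1 of the group with R. intestinalis, as are 28.1% of all genes tested. Scd1, Me1 and Thrsp are highest in its replicate 4, as are 8.1% of all genes tested.

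Of the 2 carboxylases that make malonyl-CoA, Acaca had groups that did not overlap, while those of Acacb overlapped. Acaca, the cytosolic carboxylase that supplies malonyl-CoA to Fasn, read 187, 253 and 278 in core replicates 1 to 3. With R. intestinalis it read 380.0, 358, 384, 341 and 316 in replicates 1 to 5. All 5 libraries with the bacterium lay above all 3 without it, and the lowest was 316 against a highest core value of 278. The mean was 240 ± 46.8 in core and 356 ± 28.3 with R. intestinalis, a ratio of means of 1.49. The log2 difference was 0.58 (SE 0.158, 95% interval 0.23 to 0.93), with an unadjusted p of 0.00380 and a limma adjusted p of 0.588. In the authors' deposited table Acaca has a posterior probability of 1 and a posterior fold change of 1.48. With the GC correction its log2 difference was 0.61 (adjusted p = 0.545), and without both core plus R. intestinalis replicates 1 and 4 it was 0.57. When single libraries were left out the log2 difference ran from 0.42 (without core replicate 1) to 0.70. Limma's library weights, which gave core plus R. intestinalis replicate 3 a weight of 7.98, put Acaca past the threshold (log2 difference 0.75, adjusted p = 0.0416). They put 455 of 13020 genes past it, against 0 in the main fit.

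Acacb encodes the carboxylase of the mitochondrial outer membrane, whose malonyl-CoA restrains fatty acid import by carnitine palmitoyltransferase. It read 46.0, 56.4 and 34.4 in core replicates 1 to 3, and 114, 32.4, 49.8, 67.3 and 46.0 in core plus R. intestinalis replicates 1 to 5. Replicates 1 and 4 lay above the core range, replicate 1 by far the most, and replicate 2 lay below it. The log2 difference was 0.33 (95% interval −0.49 to 1.14, adjusted p = 0.724). Without replicate 1 it was 0.08, and it was 0.08 after the GC correction too. In that fit the value of replicate 1 was 78.9, against 38.8 to 66.8 in the other 4. The log2 ratio of Acaca over Acacb was 2.38 ± 0.526 in core and 2.63 ± 0.642 with R. intestinalis, with overlapping groups (two-sided exact permutation p = 0.571, 0.762 adjusted over 4 ratios). No 50-base word of either carboxylase's longest transcript occurred in a transcript of the other, so reads of that length would tell them apart.

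Fasn, which carries out palmitate synthesis, read 229, 311 and 272 in core. It read 910.1, 260, 403, 426 and 413 in core plus R. intestinalis replicates 1 to 5. Replicates 1, 3, 4 and 5 lay above the core range and replicate 2 lay inside it. The means were 270.5 ± 41.1 and 482 ± 248, and the medians 272 and 413. The log2 difference was 0.72 (SE 0.322, 95% interval 0.00 to 1.43), with an unadjusted p of 0.0494 and a limma adjusted p of 0.588. Replicate 1 weighed on the size of the difference, which was 0.46 (adjusted p = 0.675) without it and 0.39 without replicates 1 and 4. Without replicate 2 the groups did not overlap and the log2 difference was 0.91 (adjusted p = 0.281). In that fit 873 of 13020 genes were apart and higher, against 330 with all libraries. The transcript of Fasn is GC-rich (57.9%, against a median of 49.9% over genes), and after the GC correction the log2 difference was 0.42 (95% interval 0.01 to 0.83, adjusted p = 0.559), with 599.5 in replicate 1.

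Srebf1 encodes both SREBP1 isoforms, which 1 value per gene does not separate. It read 68.3, 95.8 and 65.4 in core and 230.3, 83.0, 87.7, 106 and 119 in core plus R. intestinalis replicates 1 to 5. Replicate 1 stood far above the others, and the groups overlapped only through core replicate 2. Srebf1 had a log2 difference of 0.62 (SE 0.317, 95% interval −0.08 to 1.32, adjusted p = 0.588). Its transcript had a GC content of 58.4%, the highest of the 10 genes, and after the GC correction the log2 difference was 0.31 (adjusted p = 0.603). Without replicate 1 it was 0.37 (adjusted p = 0.706).

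Fasn followed Srebf1 across the libraries. Over the 8 libraries Pearson's r of the log2 values was 0.95 (exact permutation p = 0.00174, 0.0156 adjusted over 9 relations with Srebf1) and Spearman's rho was 0.88 (exact permutation p = 0.00724, 0.0652 adjusted). Without core replicate 3 and core plus R. intestinalis replicate 1, the 2 libraries farthest from the median of Srebf1, r was 0.84. Of 10169 genes with a mean of at least 50, 0.787% had an r with Srebf1 as high as that of Fasn. After the GC correction r was 0.81, reached by 2.05% of genes. Acacb (r = 0.87, exact permutation p = 0.0114, 0.0490 adjusted) and Scd2 (r = 0.80, exact permutation p = 0.0163, 0.0490 adjusted) also passed before that correction, at values that 7.49% and 13.6% of genes reached, and had r of 0.56 and 0.53 after it. For Acacb the relation rested on the farthest libraries (r = 0.40 without them), whereas for Scd2 r was 0.90 without them. For the other 6 members r ran from −0.33 (Scd1) to 0.54 (Acaca), with adjusted p of at least 0.378. These relations were chosen after the values were seen.

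**Figure D2:**
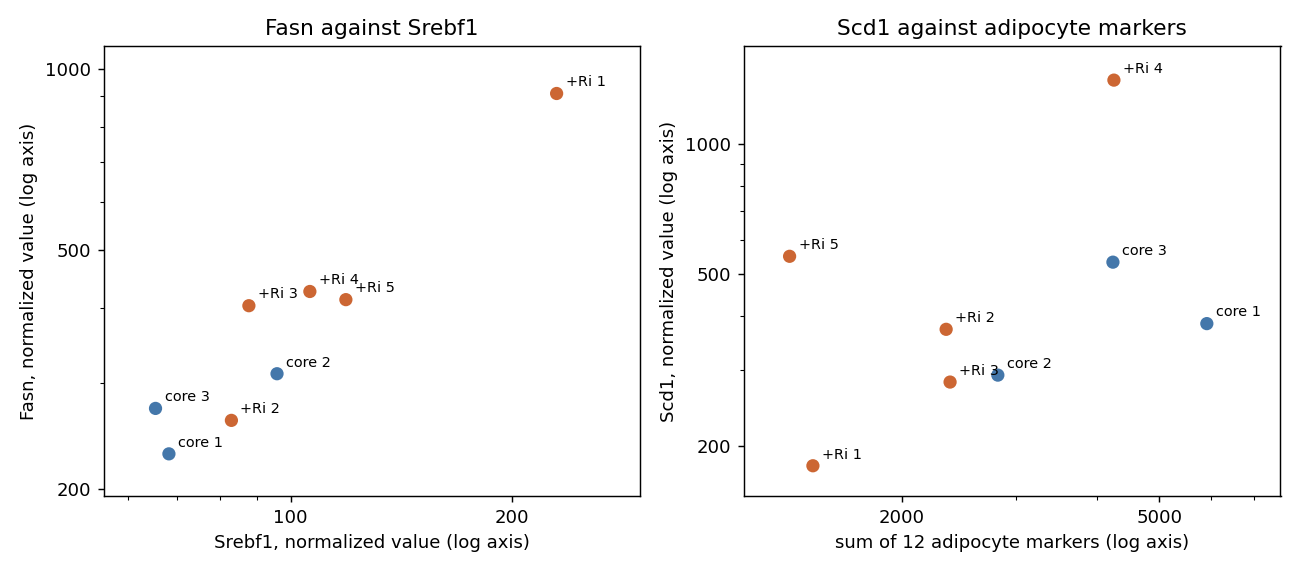
Left, the normalized value of Fasn against that of Srebf1. Right, Scd1 against the summed value of 12 adipocyte markers. Each point is a library (blue, core; orange, core plus R. intestinalis, shown as +Ri) and all axes are logarithmic. Fasn rises with Srebf1 (r = 0.95), with replicate 1 at the far end, while Scd1 is highest in replicate 4.

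Acly, which opens the pathway, read 1122, 1414 and 1145 in core and 1213, 1102, 1725, 1153 and 1446 with R. intestinalis. The groups overlapped throughout, and the log2 difference was 0.10 (95% interval −0.27 to 0.47, adjusted p = 0.814). Within each library Fasn over Acly had a log2 ratio of −2.29, −2.18 and −2.07 in core and −0.41, −2.08, −2.09, −1.43 and −1.81 with R. intestinalis. Their mean difference was 0.61 with overlapping groups (exact permutation test, two-sided, p = 0.161, 0.393 adjusted over 4 ratios). Without core plus R. intestinalis replicate 1 it was 0.33. The smallest p that these 56 splits allow is 0.0179. Acly also had an r of 0.72 with Hoxb13 (exact permutation p = 0.0372, 0.186 adjusted over 30 relations; rho 0.83; r = 0.69 without the 2 farthest libraries), a value that did not pass.

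Me1 was variable and had no shared direction. It read 111, 156.5 and 118 in core and 156.9, 97.0, 79.9, 256 and 76.7 in core plus R. intestinalis replicates 1 to 5, so that 3 libraries lay below the core range and 2 above it, replicate 1 only just. Its log2 difference was −0.09 (95% interval −0.91 to 0.73, adjusted p = 0.929), and it was 0.02 after the GC correction.

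Elovl6, which extends palmitate to stearate, was the steadiest member. It read 875, 589 and 753 in core and 812, 738, 811.5, 765 and 706 with R. intestinalis, and the 5 latter values lay inside the core range. The SD of its log2 values within groups was 0.18, and only 17.4% of genes tested had a smaller one. Elovl6 had a log2 difference of 0.07 (95% interval −0.25 to 0.39, adjusted p = 0.851). This interval overlapped that of Acaca (0.23 to 0.93), and the difference between the 2 genes was not tested. The transcript is GC-poor (44.0%), and after the GC correction the log2 difference was 0.20 (95% interval −0.11 to 0.52). The log2 ratio of Elovl6 over Fasn was 1.44 ± 0.506 in core and 0.79 ± 0.606 with R. intestinalis (two-sided exact permutation p = 0.196, 0.393 adjusted over 4 ratios).

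The 2 desaturases had their highest and lowest values in different libraries. Scd2, the form widely expressed outside the liver, read 1171, 1888 and 1605 in core and 2415, 1454, 1919, 1759 and 2262 with R. intestinalis. Its highest values were in replicates 1 and 5 and its lowest in core replicate 1. Scd2 had a log2 difference of 0.34 (95% interval −0.10 to 0.78, adjusted p = 0.605), and 0.35 after the GC correction. It was 0.15 (adjusted p = 0.977) without core replicate 1. Scd1, the form typical of liver and fat, read 384, 291 and 532 in core and 180, 372, 281, 1405 and 549 with R. intestinalis. Its lowest and highest values of all 8 libraries thus both came from mice with the bacterium, in replicates 1 and 4. Scd1 had a log2 difference of 0.14 (95% interval −1.05 to 1.32, adjusted p = 0.929) and −0.29 without replicate 4. The SD of its log2 values within groups, 0.95, was larger than in 97.5% of genes tested.

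The log2 ratio of Scd1 over Scd2 lay between −2.69 and −1.59 in the core libraries, and between −3.74 (replicate 1) and −0.32 (replicate 4) with R. intestinalis. Its mean difference was −0.20 (two-sided exact permutation p = 0.804, also after adjustment over 4 ratios). Of the 50-base words in the Scd1 transcript, 3.03% also occurred in Scd2 transcripts, 3.49% in Scd3 and 1.76% in Scd4, so a small share of reads could be split between these paralogs. Scd4 averaged 21.6 ± 2.03 in core and 28.4 ± 8.17 with R. intestinalis, and Scd3 averaged 6.36 and 6.58, below the filter.

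Thrsp, a small nuclear and cytosolic protein that is abundant in lipogenic tissue, was the lowest member by normalized value. It read 55.6, 35.1 and 20.7 in core and 14.0, 11.9, 21.5, 112 and 28.1 in core plus R. intestinalis replicates 1 to 5. Estimated reads behind these values ran from 11 to 95. Of the 5 libraries with the bacterium, 2 lay below the core range, 2 inside it and replicate 4 above it. Thrsp had a log2 difference of −0.39 (95% interval −1.81 to 1.03, adjusted p = 0.813) although the ratio of means was 1.01, since replicate 4 carried the mean of its group. Without it the log2 difference was −0.91 (adjusted p = 0.508). With replicate numbers as a block it was −1.12. Leaving out core replicate 1 gave −0.052, and leaving out replicate 2 of the group with R. intestinalis gave −0.12.

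Adipocyte markers were also read in each library, and no relation of a member with them passed after adjustment. The sum of the 12 markers in the table lay between 2813 and 5921 in the core libraries and between 1340 and 4253 with R. intestinalis, where the highest sum belonged to replicate 4, the library with the highest Scd1, Thrsp and Me1. Adiponectin (Adipoq) read 452, 131 and 224 in core and 24.0 to 207 with R. intestinalis, where replicates 1 and 5 were the lowest and replicate 4 the highest. Of the 11 markers tested 9 had a negative log2 difference, while Car3 averaged 948 ± 510 and 314 ± 308, Fabp4 721 ± 288 and 384 ± 234, and Pparg 627 ± 272 and 642 ± 143. Leptin (Lep) was at 0 in core plus R. intestinalis replicates 1 and 5 and at 37.8 in replicate 4. Core replicate 1 had the largest sum, 5921, and there Scd1 read 384 and Thrsp 55.6. Over the 8 libraries r with the mean log2 level of the adipocyte markers was 0.50 for Scd1 (exact permutation p = 0.205, 0.525 adjusted over 30 relations) and 0.65 for Thrsp (exact permutation p = 0.0838, 0.302 adjusted). Without the 2 farthest libraries, core replicate 1 and core plus R. intestinalis replicate 5, these were 0.91 and 0.75. For Acaca, Fasn, Srebf1 and Scd2 r had the opposite sign (−0.57, −0.63, −0.70 and −0.79), with adjusted p from 0.155 to 0.416. The part of adipocyte RNA in the members' values was not tested.

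No relation with the epithelial markers passed after adjustment either. Their mean log2 level had an r of 0.90 with Fasn (exact permutation p = 0.00270, 0.0811 adjusted over 30 relations; rho 0.86), 0.82 with Srebf1 (exact permutation p = 0.0139, 0.155 adjusted), 0.80 with Acacb and 0.76 with Scd2. Without core plus R. intestinalis replicates 1 and 2, the farthest from the median, these were 0.78, 0.71, 0.17 and 0.63. Replicate 1 was also the library where GC-rich genes exceeded GC-poor genes most (0.96). None of the 30 relations with adipocyte markers, epithelial markers or Hoxb13 passed after adjustment. They were not computed after the GC correction, nor set beside the share of all genes with such an r. The sum of the 10 epithelial markers lay between 106852 and 124356 in the core libraries and between 107053 and 136928 with R. intestinalis. Acaca, whose groups were apart, had an r of 0.38 with these markers (0.654 adjusted) and of −0.16 with Hoxb13 (0.817 adjusted).

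**Figure D3:**
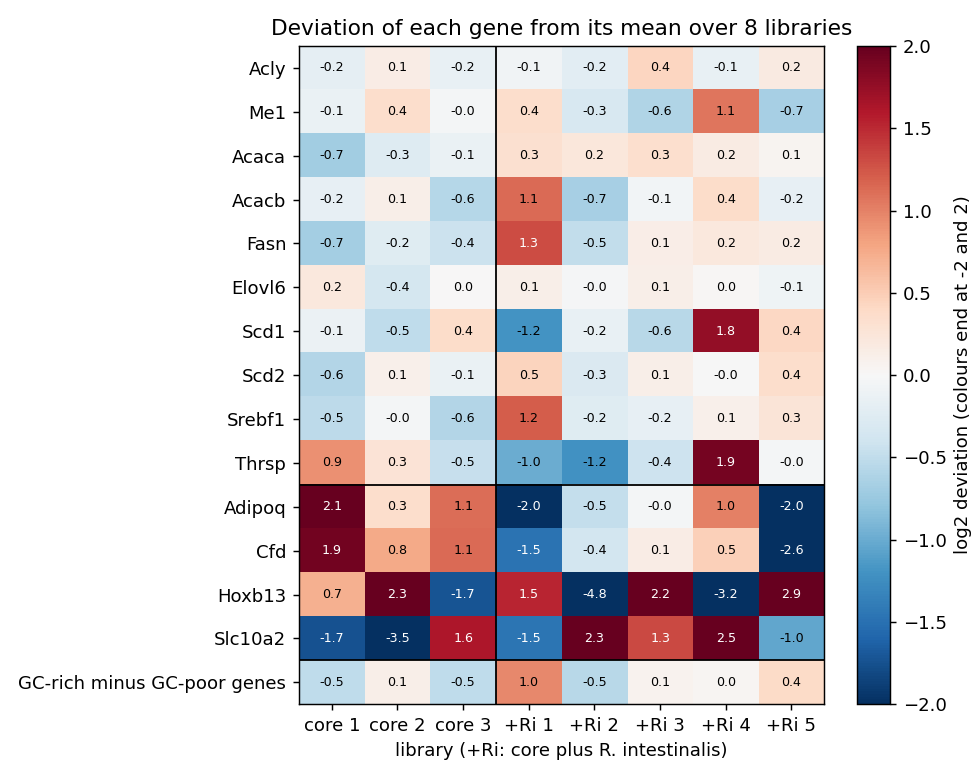
Log2 deviation of each of the 10 genes from its mean over the 8 libraries (rows; columns are libraries, +Ri for core plus R. intestinalis), with 2 adipocyte genes, 2 genes of gut position and, in the last row, the mean deviation of GC-rich minus GC-poor genes. Acacb, Fasn and Srebf1 are raised in +Ri 1, where the last row reads 1.0, and Scd1, Me1 and Thrsp in +Ri 4.

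Markers of other cells gave these values beside the members. Smooth muscle genes (8 of 8 tested) and fibroblast genes (8 of 8) all had negative log2 differences, with medians of −0.48 and −0.62. Acta2 averaged 35140 ± 4353 without and 22800 ± 4072 with R. intestinalis, Tagln 34880 and 21620, Myh11 35800 and 29020, Dcn 3739 and 2513, Col3a1 2660 and 1782, and Dpt 1397 and 920. Epithelial genes had a median of 0.20, with 8 of 10 above 0 (Lgals4 averaged 36890 and 33910, Krt8 27240 and 31730, Krt19 19030 and 22170). Small intestinal genes had a median of 0.71, with 8 of 8 tested above 0, and Fabp2 averaged 4173 and 4186, Apob 2847 and 3018, and Sis 205 and 557. Glial genes had a median of −0.18 with 2 of 6 above 0. Mbp, a myelin gene, averaged 256 and 284, S100b 68.9 and 46.9, and Erbb3, which epithelium also carries, 329 and 674. Hepatic and pancreatic genes had 1 of 4 above 0 (Cela1 averaged 616 and 487, Ttr 162 and 112, Alb 30.3 and 22.9). Genes that differ along the colon had 5 of 7 above 0, and Car1 averaged 44000 and 67190, B4galnt2 6897 and 10760, and Car4 8417 and 9659. Their part in the differences of the members was not tested.

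**Figure D4:**
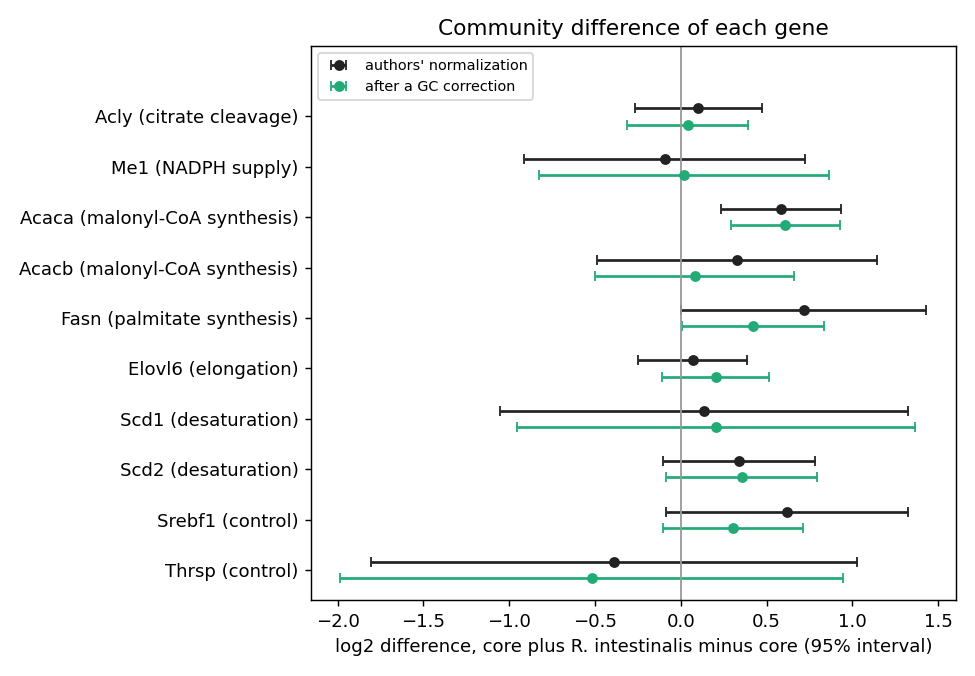
Log2 difference, core plus R. intestinalis minus core, of each gene with its 95% interval from limma, on the authors' normalization (black) and after a GC correction (green). The intervals of Acaca (0.23 to 0.93) and narrowly that of Fasn lie above 0, and no adjusted p is below 0.588 before or 0.545 after the correction. The correction moves Srebf1 from 0.62 to 0.31 and Acaca from 0.58 to 0.61.

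Around the members, genes that supply citrate, acetyl-CoA and NADPH were mostly above 0. Of 11 tested, 9 had a positive log2 difference (median 0.17), against 49.6% of all genes tested. By limma 2 had an unadjusted p below 0.05, both higher, against 4.44% of all genes, and 0 passed the threshold. After the GC correction 8 of the 11 were above 0 (median 0.16). Slc25a1, the mitochondrial citrate carrier, read 108, 150.1 and 156 in core and 528, 121, 206.5, 270.2 and 248 with R. intestinalis (log2 difference 0.84, unadjusted p = 0.0490, limma adjusted p = 0.588). As for Fasn, replicate 1 was the highest and replicate 2 lay inside the core range. Pgd, an NADPH-producing enzyme of the pentose phosphate pathway, averaged 1725 ± 180 and 2166 ± 218 (log2 difference 0.33, limma adjusted p = 0.588). Acss1, a mitochondrial acetyl-CoA synthetase, averaged 411 and 485, and Cs, citrate synthase, 3312 and 4156.

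Genes that control the pathway had 17 of 21 above 0 (median 0.30), against 49.6% of all genes tested. By limma 1 had an unadjusted p below 0.05, higher, against 4.44% of all genes, and 0 were past the threshold. Mid1ip1, a homolog of Thrsp that promotes the polymerization of acetyl-CoA carboxylase, read 103, 183 and 152 in core and 309, 154, 212, 187 and 230.1 with R. intestinalis (log2 difference 0.58, unadjusted p = 0.0418, limma adjusted p = 0.588). The groups overlapped through core replicate 2. The transcription factor Usf1 averaged 122 and 173, Nr1h2 (the oxysterol receptor LXR beta) 351 ± 78.9 and 480 ± 117, and Srebf2, the SREBP of cholesterol synthesis, 258 ± 38.3 and 383 ± 139. Core plus R. intestinalis replicate 1 held the highest value in 12 of these 21 genes, against 28.1% of all genes tested. After the GC correction the median of the list was 0.11, with 16 of 21 above 0.

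Elongation and desaturation beyond the members did not share this direction. Of 14 genes tested 4 were above 0 (median −0.04), and the 3 with an unadjusted p below 0.05 were all lower with R. intestinalis. Over all genes tested, 3.69% had such a p and were lower. The 3 genes are among the 4 tested that encode dehydratases, which carry out the third step of each elongation cycle. Ptpla averaged 197 ± 24.5 in core and 152 ± 12.3 with R. intestinalis (log2 difference −0.37), Ptplb 332 ± 45.5 and 263 ± 12.0 (−0.33), and Ptplad2 72.5 ± 26.1 and 42.7 ± 11.4 (−0.71), each with a limma adjusted p of 0.588. The fourth, Ptplad1, averaged 391 ± 17.8 and 368 ± 50.5 (log2 difference −0.10, unadjusted p = 0.520, limma adjusted p = 0.795), with overlapping groups. For Ptpla and Ptplb the groups did not overlap, against 3.31% of all genes apart and lower. The list had 17 of its 22 symbols in the table, in part because it held older and newer names of the dehydratases. Acyl-CoA synthetases and the mitochondrial synthesis pathway had 4 of 8 above 0 (median 0.00) and 0 with an unadjusted p below 0.05. There Acsl1 averaged 238 ± 11.7 and 278 ± 39.3, Dbi, the acyl-CoA binding protein, 2264 and 2015, Acsl4 239 and 220, and Mcat, the mitochondrial malonyl transferase, 29.1 and 32.2.

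**Figure D5:**
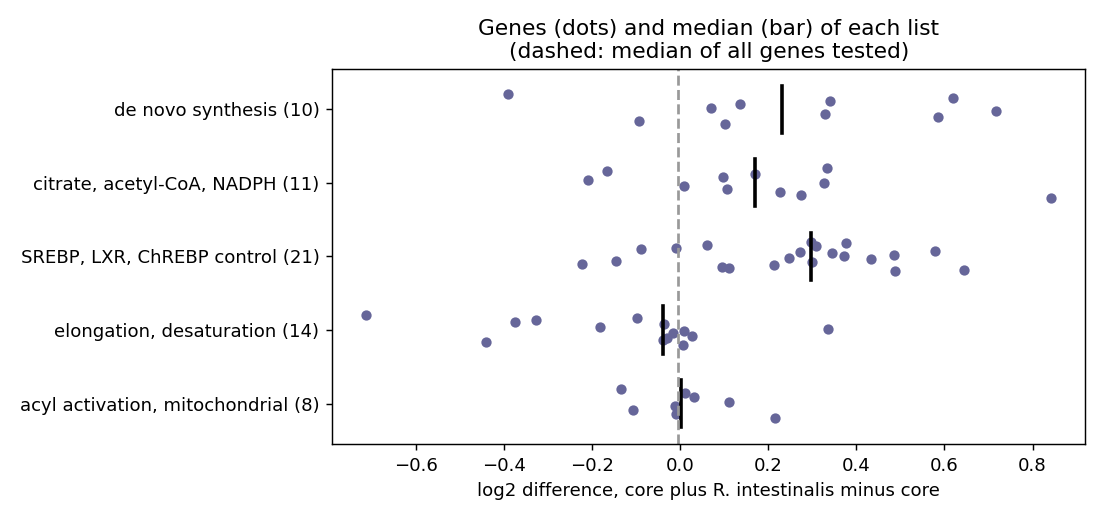
Log2 difference, core plus R. intestinalis minus core, of each gene (dots) and the median (bars) for the 10 synthesis genes and 4 lists of related genes, with the number tested in parentheses; the dashed line is the median of all genes tested. The control list has the highest median, 0.30, and elongation and desaturation the lowest, −0.04.

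Likeness was measured among genes with a mean of at least 50, after setting aside symbols of antigen receptor segments, cytosolic and mitochondrial ribosomal proteins, Riken or other clones and predicted models. By pattern over the 8 libraries, the genes most like Fasn among 9449 were Fam134a, Spint2, Slc25a22 and Tbc1d17, with Pearson's r from 0.988 to 0.992, and 438 genes reached 0.9. Those most like Scd2 were Ppan, Flywch1, Ercc2 and Rnf31 (0.990 to 0.992), with 254 genes at 0.9 or more. Acaca was most like Ilvbl, Ttc17, Ric8 and Ncaph2 (0.963 to 0.981), with 54 genes at 0.9 or more. All 4 genes most like Fasn were highest in core plus R. intestinalis replicate 1, and the 4 most like Scd2 in replicate 1 or 5. Spint2, for example, a protease inhibitor of epithelia, read 1087 to 1407 in core and 3117 in replicate 1. None of these genes was in the pathway lists.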

How the data were processed

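Total RNA of 8 samples was made into stranded mRNA libraries, per the labels' protocols. Bowtie2, RSEM 1.2.23 and the build mm9 are listed, without roles, per the submitters' processing notes. Per the file headers, the deposited table gives 1 normalized expression signal per gene and library, and the authors' comparison of the groups as a score (a posterior probability, PPDE) and a ratio (raw and posterior fold change). The method behind these is not given in the sources used here. Low values lie on steps worth about 1 read for 79.9% to 84.5% of values under 30 (tolerance 0.05 of a step), so whole reads were not assumed. The analysis used log2(value + 1), on which changes of low genes come out too small, with limma 3.58.1 in R 4.3.3 (mean-variance trend) for genes with a mean of at least 10. Alternatives were other pseudocounts and filters, leaving out each library, rescaling by trimmed means of M values (30% of M, 5% of A), quantiles, a replicate block, library weights and no trend. Chosen after seeing the data were a lowess GC correction (GC content was matched for 98.8% of genes tested), leaving out 2 libraries, and the relations with Srebf1. Named were all members, the 4 genes of smallest p in each pathway list, the 3 most abundant of each marker list, Slc10a2, Hoxb13, Apoe, and the 4 genes most like each of Fasn, Acaca and Scd2; the same for Scd1 is not reported here. Adipoq, Lep and Scd3 were named after their values were seen. Members and lists were chosen with earlier results of these data known.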

Additional observations from a re-analysis of the deposited data

Results flagged for a closer look

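Among 14 values looked at in the 5 core plus R. intestinalis libraries (the 10 genes, not logged, and 4 log2 ratios), 3 had a library far from the other 4. The limit used flags about 1 in 20 by chance only for independent, normally spread values. Fasn followed Srebf1 (r = 0.95), so the count of 3 was not set against that rate. Fasn was 910.1 and Srebf1 was 230.3 in replicate 1, and Thrsp was 112.1 in replicate 4. Their gaps to the next library were 0.744, 0.757 and 0.838 of the range of the group, above Dixon's limit of 0.71. These gaps belong to the normalized values. On the log2 scale used for the fits a high library lies closer to the others. In replicate 1 GC-rich genes were high as a group (0.96 on the log2 scale against GC-poor genes), and in replicate 4 the adipocyte markers had their highest sum among the libraries with R. intestinalis, 4253. The part of either in these values was not tested.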

How the results depend on the processing

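By limma 0 genes passed the threshold in every fit of all 8 libraries except with library weights (455 of 13020 genes, and 1 member, Acaca), and leaving out single libraries gave 0 to 1. The members above 0 numbered 7 to 9 when single libraries were left out, 9 after the GC correction and 6 without both core plus R. intestinalis replicates 1 and 4. Members whose groups did not overlap numbered 1 to 2 when single libraries were left out (Srebf1 joined without core replicate 2, Fasn when replicate 2 of the group with R. intestinalis was dropped), and 2 without both replicates (Me1 joined, lower). Smaller groups overlap less often. In these 3 fits 1042 of 13018, 873 of 13020 and 855 of 13015 genes were apart and higher, against 330 of 13020 in the main fit. Those apart and lower numbered 1536, 821 and 939, against 431. Signs turned for Scd1, Acacb, Me1 and Elovl6, whose log2 differences in the main fit were 0.14, 0.33, −0.09 and 0.07. Scd1 had −0.55 with the replicate block, −0.28 with library weights, −0.29 to 0.45 without single libraries and −0.017 without both replicates. Acacb had −0.088 without both, and Me1 had 0.021 after the GC correction and −0.37 to 0.064 without single libraries. Elovl6 had −0.084 to 0.20 without single libraries. The log2 ratio of Scd1 over Scd2 ran from −0.67 to 0.19 without single libraries. The cause of these shifts was not tested. With the replicate block the adjusted p of every member was at least 0.923, and unadjusted p below 0.05 fell from 1058 to 395 genes; without single libraries it ran from 270 to 1908. Same-numbered libraries shared only a number (correlations of deviations −0.12, −0.53 and −0.07). In the sample names the core numbers run from 3 to 5 instead, and paired by these the correlations were −0.01, −0.41 and −0.49. What the lower core numbers were is not known from the sources used here. Counts of elongation genes above 0 went from 4 of 14 to 2 of 14 under quantile normalization or when replicate 1 of either group or both replicates were left out. It was 2 of 11 with a mean of at least 50 and 7 of 17 without a filter. Depth limits Thrsp and Acacb most, with as few as 11 and 29 estimated reads in a library.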
